A study of Mus musculus with 6 samples.

Results

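To examine glucocorticoid signalling in hearts without Mc4r, the glucocorticoid receptor and 9 genes of its pathway were followed through a table of RNA-seq values for 54532 genes. The 10 genes were taken by name: the receptor Nr3c1, the enzyme Hsd11b1, and Fkbp5, Tsc22d3, Zbtb16, Sgk1, Klf9, Errfi1, Mt1 and Mt2, which are known to respond to glucocorticoids. Of these, only Fkbp5 passed the test across the table, with a mean 3.64 times as high in the Mc4r KO group as in the WT group. Nr3c1 itself was at 0.764 times its WT mean and did not pass. The other members differed in direction. Tsc22d3, Sgk1 and Hsd11b1 overlapped between the groups. Mt1, Zbtb16, Mt2 and, by a small amount, Klf9 were higher and Errfi1 was lower in every Mc4r KO library without passing the test. Mt2 had at most 19 reads in a library.

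The study compared hearts of 3 homozygous Mc4r knockout mice (Mc4r KO) with hearts of 3 wild-type littermates (WT), all male and 12 weeks old, with 1 library of RNA per mouse. Mc4r encodes the melanocortin-4 receptor, which acts in the brain to restrain feeding, and mice that lack it become obese. Both groups came from matings of heterozygous mice on the C57B/6/N background, so the knockout is present in the whole animal and is not restricted to the heart. The knockout line was purchased. The sample titles name the tissue muscle, the other labels name it heart, and the study describes left ventricle.

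Glucocorticoids, corticosterone in the mouse, are released by the adrenal cortex under the control of the brain and the pituitary, and enter cells freely. Inside the cell, 11beta-hydroxysteroid dehydrogenase type 1 (Hsd11b1) regenerates active hormone, and the receptor, held by HSP90 and its partner proteins, moves to the nucleus when it binds hormone and acts on genes that carry glucocorticoid response elements. Cardiomyocytes express the receptor, and Fkbp5, Tsc22d3, Klf9, Zbtb16 and Sgk1 are among the genes that respond to it in many tissues. The metallothioneins Mt1 and Mt2 respond to glucocorticoids and, through their metal response elements, to zinc and other metals.

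Between 14691076 and 16047003 reads lay on genes in a library. Mc4r itself had 2 reads in WT replicate 3 and 0 in the other 5 libraries, so the heart libraries could not show its deletion. FPKM is the number of fragments per kilobase of gene length, scaled for each library. Over genes above 0 in all libraries, the median ratio to the geometric mean of the libraries was 1.0058 in each of the 6. The deposited values were thus already scaled to a common median. Cardiomyocyte markers summed to between 14254 and 15331 FPKM in WT and between 17233 and 18824 FPKM in Mc4r KO. Much of that difference was Actc1, with means of 5178 and 7539 FPKM. At an unadjusted p under 0.05, 2 of the 8 markers were higher (25%, beside 12.0% of all genes). Tnni3 and Pln had log2 fold changes of -0.0050 and -0.33. The skeletal muscle list held 5 of 7 markers under 1 FPKM in every library. WT replicate 3 stood apart with 754 FPKM of atrial markers, against 16.1 to 144 FPKM in the other 5 libraries. Mitochondrial genes took 47.1% to 59.3% of the summed FPKM in WT and 43.0% to 46.6% in Mc4r KO. This share moved with the groups without overlap, but unevenly. WT replicates 1 and 2 were at 59.3% and 57.4%, while WT replicate 3 at 47.1% lay close to Mc4r KO replicate 2 at 46.6%. The part of the mitochondrial genes in the results below was not tested beyond the alternatives named beside each result.

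All 10 genes were detected and all 10 were among the 18035 genes tested with limma, a linear model with a moderated error, on log2(FPKM + 0.1). A gene was called where its log2 fold change exceeded 0.75 in either direction with an adjusted p below 0.05, and 1 of the 10 genes was called beside 0.460% of all genes tested. The same gene was the only 1 with an adjusted p under 0.05, beside 0.582% of all genes. At an unadjusted p under 0.05, 4 of the 10 genes were higher in Mc4r KO beside 12.0% of all genes, and 2 were lower beside 8.83%. All 3 Mc4r KO libraries lay above all 3 WT libraries for 5 of the 10 genes, beside 14.1% of all genes, and below them for 2, beside 12.4%. The median log2 fold change was 0.10 over the 10 genes and -0.01 over all genes tested, which the deposited scaling had set near 0. When FPKM were scaled to the sum outside the mitochondrial chromosome, the median of all genes shifted to -0.19 and that of the 10 genes to -0.10, since this scaling moves every gene by about the same amount. The exact permutation test of 3 libraries against 3 cannot give a p under 0.1, and this was its value for each of the 7 genes without overlap.

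**Figure D1:**
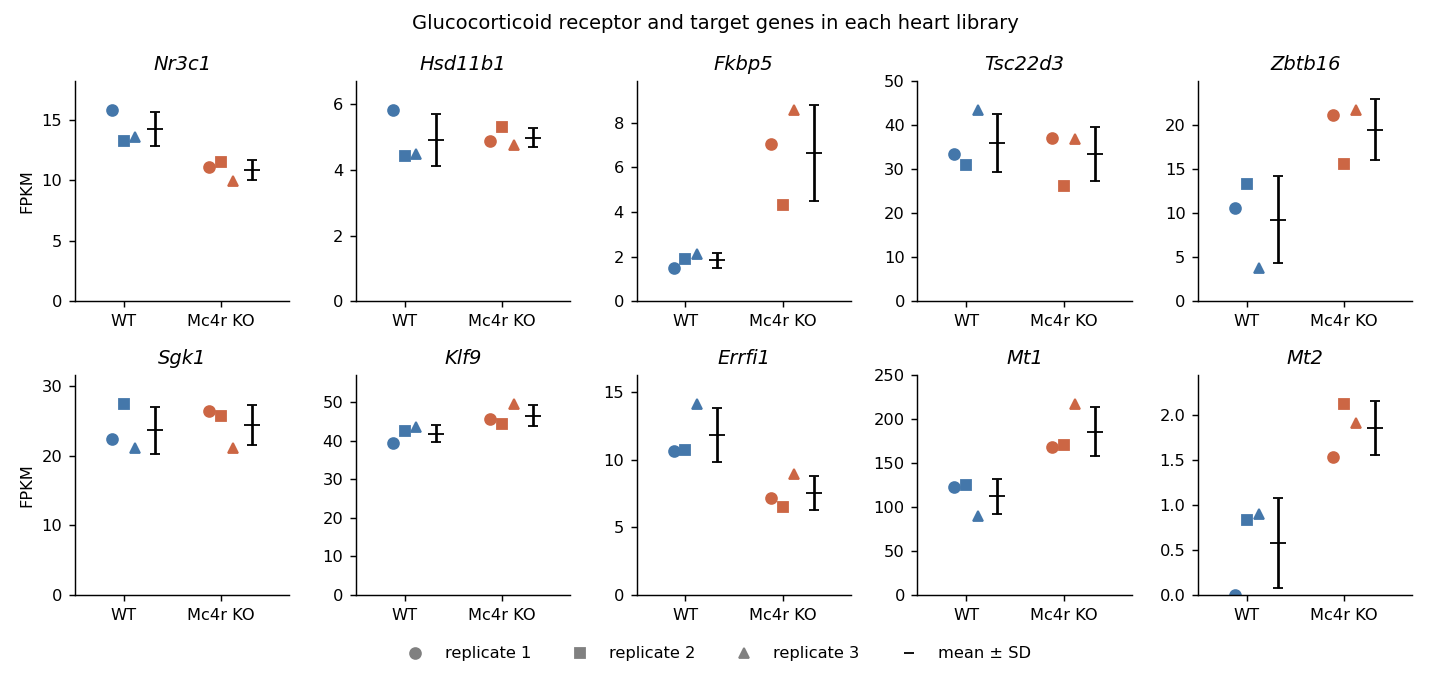
FPKM of the 10 genes (vertical axes, linear and starting at 0) in the 3 WT and 3 Mc4r KO libraries (points, shaped by replicate), with the mean ± SD of each group as a bar. Fkbp5 lies between 1.48 and 2.11 FPKM in WT and between 4.31 and 8.57 FPKM in Mc4r KO, while Tsc22d3, Sgk1 and Hsd11b1 overlap.

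In FPKM, a level per gene length, the 10 genes spanned a wide range of abundance in the heart. Mt1 was the most abundant with a mean of 149 FPKM over the 6 libraries (rank 238 of the 54532 genes), followed by Klf9 at 44.1 FPKM and Tsc22d3 at 34.7 FPKM. Sgk1 followed at 24.0 FPKM, Zbtb16 at 14.3 FPKM, Nr3c1 at 12.5 FPKM and Errfi1 at 9.70 FPKM. Hsd11b1 at 4.95 FPKM, Fkbp5 at 4.24 FPKM and Mt2 at 1.22 FPKM (rank 10732) were the lowest. Several neighbours in this order overlapped in their libraries, among them Klf9 and Tsc22d3, Zbtb16 and Nr3c1, and Hsd11b1 and Fkbp5. The order of Fkbp5 depended on the group, since it was below Hsd11b1 in all 3 WT libraries and above it in Mc4r KO replicates 1 and 3.

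The receptor gene Nr3c1 lies on the minus strand of chromosome 18 at 39410545 to 39491301 (mm10, as for all gene positions here). Its level was 15.8, 13.3 and 13.5 FPKM in WT replicates 1, 2 and 3 and 11.1, 11.5 and 9.93 FPKM in Mc4r KO replicates 1, 2 and 3, from 1183 to 1710 reads a library. The groups did not overlap, with a gap of less than 2 FPKM between the lowest WT and the highest Mc4r KO library. The means were 14.2 ± 1.40 and 10.8 ± 0.813 FPKM (SD, n = 3 each). On the log2 scale the difference was -0.38 (SE 0.11, 95% interval -0.63 to -0.14), with an adjusted p of 0.118 in limma. It was negative in each of 19 alternative analyses, from -0.58 to -0.23, and passed an adjusted p of 0.05 in none of them. In whole tissue, fewer cells of a type and less RNA per cell cannot be told apart.

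Nr3c2, the mineralocorticoid receptor, binds the same hormone in the heart and stood at a lower level than Nr3c1 in each library. It was at 4.11, 4.42 and 3.66 FPKM in WT and 3.06, 2.36 and 2.63 FPKM in Mc4r KO, again without overlap and lower in Mc4r KO. Its log2 fold change was -0.58 (SE 0.14, limma adjusted p = 0.0947). The ratio of Nr3c1 to Nr3c2 was 3.52 ± 0.452 in WT and 4.10 ± 0.675 in Mc4r KO (SD, n = 3 each) (exact permutation test, two-sided p = 0.5, in a design that cannot go below 0.1). The libraries of the groups overlapped in this ratio. Fibroblast markers, which summed to between 205 and 218 FPKM in WT and between 152 and 177 FPKM in Mc4r KO, moved in the same direction as both receptors. At an unadjusted p under 0.05, 3 of the 7 markers were lower (42.9%, beside 8.83% of all genes) and 0 were higher. Dcn, the most abundant, went from a mean of 119 FPKM to 82.4 FPKM, while the collagen genes Col1a1 and Col1a2 overlapped between the groups with log2 fold changes of 0.44 and 0.03. The part of these cells in the receptor levels was not tested.

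Among the protein-coding genes with a mean of at least 1 FPKM, 10219 in all, the pattern over the 6 libraries most like that of Nr3c1 belonged to Npm1, a nucleolar chaperone, with a Pearson r of 0.9995 on the log2 scale. Cep70, a centrosomal protein gene, and Far1, which encodes a fatty acyl-CoA reductase, followed with r of 0.995 and 0.991. Npm1 was at 35.1, 31.4 and 31.8 FPKM in WT and 27.8, 28.4 and 25.6 FPKM in Mc4r KO, and like the receptor was highest in WT replicate 1. These correlations describe 6 libraries that share a group difference, and the genes were taken as the highest of the 10219.

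Hsd11b1, on the minus strand of chromosome 1 at 193221634 to 193264075, encodes the enzyme that regenerates active glucocorticoid from its inert keto form. Its level was 5.84, 4.42 and 4.49 FPKM in WT and 4.90, 5.31 and 4.77 FPKM in Mc4r KO, from 270 to 350 reads. The highest and the lowest library were both WT, so the groups overlapped. The log2 fold change of 0.03 had a 95% interval of -0.28 to 0.34 (limma adjusted p = 0.923), and it lay between -0.16 and 0.26 over 19 alternatives. H6pd, which supplies the cofactor of this enzyme, was between 7.27 and 8.96 FPKM in WT and between 8.32 and 9.27 FPKM in Mc4r KO, which overlapped. Hsd11b2, which inactivates the hormone, had at most 3 reads in a library and was not tested.

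Fkbp5 encodes FKBP51, a co-chaperone that binds HSP90 in the receptor complex, lowers the affinity of the receptor for hormone and is itself induced by glucocorticoids, which closes a negative feedback loop. The gene lies on the minus strand of chromosome 17 at 28399094 to 28517527. It was at 1.48, 1.90 and 2.11 FPKM in WT and 7.06, 4.31 and 8.57 FPKM in Mc4r KO, from 197 to 340 reads in WT and 620 to 1302 reads in Mc4r KO. The groups did not overlap, and the lowest Mc4r KO library, replicate 2, had more than 2 times the FPKM of the highest WT library. Fkbp5 rose from 1.83 ± 0.322 FPKM to 6.65 ± 2.16 FPKM (SD, n = 3 each). On the log2 scale the rise was 1.77 (SE 0.26, 95% interval 1.16 to 2.38), with an adjusted p of 0.0462 in limma. This value stayed between 1.22 and 2.05 over 19 alternative analyses, but the adjusted p ranged from 0.00534 to 0.334 and the call was lost in 12 of them. Leaving out any 1 library other than WT replicate 3 ended the call, with adjusted p from 0.0553 to 0.157, and without WT replicate 3 the adjusted p was 0.0199.

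The plot of fold changes sets Fkbp5 beside the other members, and the interval of each shows how far the 6 libraries could locate the difference.

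**Figure D2:**
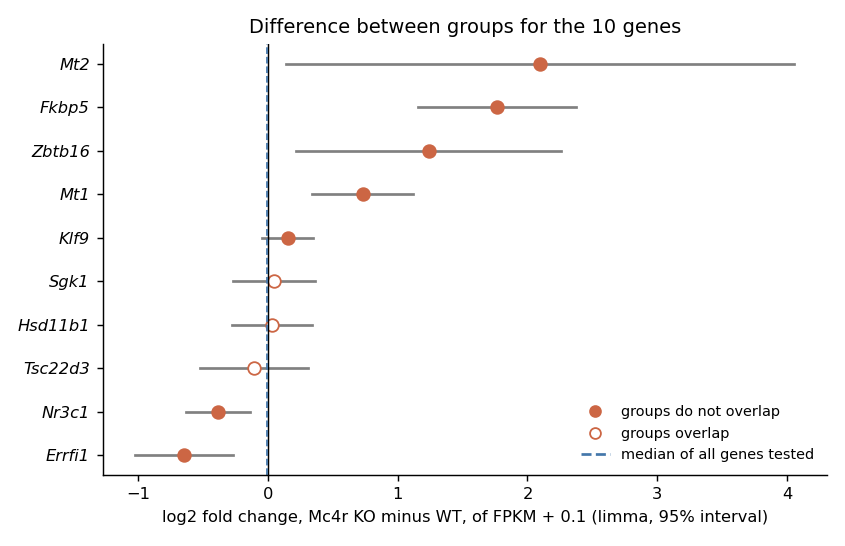
Log2 fold change of FPKM + 0.1, Mc4r KO minus WT (horizontal axis), for the 10 genes, with the 95% interval of limma as a line; filled points mark genes whose groups do not overlap and the dashed line is the median of all genes tested (-0.01). The interval lies above 0 for Mt2, Fkbp5, Zbtb16 and Mt1 and below 0 for Nr3c1 and Errfi1, and only Fkbp5 has an adjusted p under 0.05.

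To show the sequence ahead of the genes that the glucocorticoid and metal responses are known for, the bases before the RefSeq transcription start were searched on both strands for 3 motifs. These were the core of the glucocorticoid response element (GNACA and TGTNC with 3 bases between them), the metal response element (TGCACNC or TGCGCNC) and the E-box bound by clock factors (CACGTG). Entries were found for 8 of the 10 genes, all but Nr3c1 and Zbtb16, with 16 windows of 300 bases in GRCm38.p6. Over all 32851 windows of the table, 0.475% held the glucocorticoid core, 25.7% a metal response element and 7.15% an E-box. The glucocorticoid core was present in 2 windows of the members, that of Mt1 and 1 of the 6 windows of Sgk1. The 250 bases before the start are shown for these and, for comparison, for Mt2 and Fkbp5, with the matched motifs in capitals.
Mt1 (plus strand, chr8:94178839-94179088): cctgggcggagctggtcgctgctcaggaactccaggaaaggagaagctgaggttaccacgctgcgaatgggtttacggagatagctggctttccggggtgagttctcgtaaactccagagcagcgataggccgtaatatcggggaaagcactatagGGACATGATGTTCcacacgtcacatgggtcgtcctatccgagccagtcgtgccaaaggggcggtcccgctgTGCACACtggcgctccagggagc
Mt2 (plus strand, chr8:94172368-94172617): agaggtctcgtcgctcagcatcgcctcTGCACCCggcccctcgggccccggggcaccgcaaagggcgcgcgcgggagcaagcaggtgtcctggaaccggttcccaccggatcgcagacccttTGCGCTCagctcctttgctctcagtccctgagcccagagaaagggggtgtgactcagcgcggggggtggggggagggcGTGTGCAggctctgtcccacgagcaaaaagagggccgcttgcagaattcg
Sgk1 (plus strand, chr10:21993640-21993889): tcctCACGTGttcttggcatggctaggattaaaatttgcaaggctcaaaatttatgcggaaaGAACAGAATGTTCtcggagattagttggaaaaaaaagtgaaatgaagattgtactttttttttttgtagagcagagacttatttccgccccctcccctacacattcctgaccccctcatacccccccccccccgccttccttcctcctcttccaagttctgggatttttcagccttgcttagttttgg
Fkbp5 (minus strand, chr17:28486150-28486399): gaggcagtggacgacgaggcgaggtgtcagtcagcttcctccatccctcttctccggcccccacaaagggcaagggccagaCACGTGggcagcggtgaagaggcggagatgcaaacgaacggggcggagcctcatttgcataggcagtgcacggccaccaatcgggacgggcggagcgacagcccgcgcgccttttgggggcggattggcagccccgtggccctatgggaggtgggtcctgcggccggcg
In the Mt1 sequence the glucocorticoid core begins at base -94 from the start and a metal response element at base -23, and 2 more metal response elements lie among the 50 bases after the start, which are not shown. The Mt2 sequence holds 3 metal response elements, at bases -223, -128 and -50, of which the last reads on the opposite strand. Another, also on the opposite strand, lies at base 5, after the start, and is not shown. Metal response elements were also present in the window of Hsd11b1 and in another window of Sgk1. The Sgk1 sequence holds the glucocorticoid core at base -188 and an E-box at base -246. The Fkbp5 sequence holds an E-box at base -169 and no glucocorticoid core in these letters, and the response elements this gene is known for lie in its introns, outside the window. A match describes the sequence and was not measured as binding.

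Tsc22d3 encodes GILZ, a leucine zipper protein that carries part of the anti-inflammatory action of glucocorticoids, and lies on chromosome X at 140539528 to 140600659. It was at 33.5, 31.0 and 43.5 FPKM in WT and 37.2, 26.3 and 36.9 FPKM in Mc4r KO, from 1734 to 3219 reads. The highest library was WT replicate 3 and the lowest Mc4r KO replicate 2, and the groups overlapped. For Tsc22d3 the log2 fold change was -0.11 (95% interval -0.53 to 0.31, limma adjusted p = 0.772), and it turned positive without either of these 2 libraries. An interval that ends at 0.31 lies below the whole interval of Fkbp5, which begins at 1.16, although both genes are known targets of the receptor.

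Zbtb16 encodes PLZF, a zinc finger repressor, and lies on chromosome 9 at 48654297 to 48836222. Its level was 10.6, 13.3 and 3.75 FPKM in WT and 21.1, 15.5 and 21.7 FPKM in Mc4r KO, from 337 to 1838 reads. All Mc4r KO libraries were above all WT libraries, and WT replicate 3 was far below the other WT libraries. Zbtb16 had a log2 fold change of 1.24 (SE 0.44, 95% interval 0.21 to 2.26, limma adjusted p = 0.177). WT replicate 3, the library with the most atrial RNA, decided much of this value: without it the log2 fold change was 0.69 (adjusted p = 0.0627), and with the mitochondrial share as a covariate it was 2.44.

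Sgk1, serum- and glucocorticoid-regulated kinase 1, acts on ion channels and transporters and lies on chromosome 10 at 21882184 to 21999903. It was at 22.4, 27.5 and 21.1 FPKM in WT and 26.3, 25.7 and 21.1 FPKM in Mc4r KO, from 1551 to 2004 reads. The groups covered nearly the same range, with the highest library in WT. The log2 fold change of 0.05 had a 95% interval of -0.27 to 0.36 (limma adjusted p = 0.877).

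Klf9 encodes a Krüppel-like transcription factor and lies on chromosome 19 at 23141226 to 23166911. It was at 39.3, 42.5 and 43.6 FPKM in WT and 45.6, 44.2 and 49.6 FPKM in Mc4r KO, from 1807 to 2596 reads. The groups did not overlap, but the gap between WT replicate 3 and Mc4r KO replicate 2 was small beside the range of each. Klf9 had a log2 fold change of 0.15 (95% interval -0.05 to 0.35, limma adjusted p = 0.356), and it was -0.04 when FPKM were scaled to the sum outside the mitochondrial chromosome, where the median of all genes was -0.19.

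Errfi1 encodes MIG6, an inhibitor of the epidermal growth factor receptor, and lies on chromosome 4 at 150853919 to 150868892. It was at 10.7, 10.7 and 14.2 FPKM in WT and 7.21, 6.49 and 8.93 FPKM in Mc4r KO, from 353 to 864 reads. Every Mc4r KO library was below every WT library, the opposite of the direction of Fkbp5. Errfi1 had a log2 fold change of -0.64 (SE 0.16, 95% interval -1.02 to -0.27, limma adjusted p = 0.102). Over 19 alternatives it lay between -1.08 and -0.51 and passed an adjusted p of 0.05 with limma voom on the recovered reads alone (0.0384).

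Mt1, metallothionein 1, binds zinc and copper and lies on the plus strand of chromosome 8 at 94179082 to 94180327. It was at 123, 126 and 89.4 FPKM in WT and 169, 171 and 218 FPKM in Mc4r KO, from 1898 to 4356 reads. The groups did not overlap, and WT replicate 3 was the lowest and Mc4r KO replicate 3 the highest library. The means were 113 ± 20.1 and 186 ± 27.8 FPKM (SD, n = 3 each), and the difference on the log2 scale was 0.73 (SE 0.16, 95% interval 0.34 to 1.12, limma adjusted p = 0.0904). The value lay between 0.53 and 1.06 over 19 alternatives, and 4 of them, including the fit without WT replicate 3, passed an adjusted p of 0.05.

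Mt2, metallothionein 2, lies next to Mt1 on chromosome 8 at 94172664 to 94173568. It had 0, 7 and 9 reads in WT and 14, 19 and 18 reads in Mc4r KO, or 0, 0.829 and 0.899 FPKM and 1.53, 2.13 and 1.91 FPKM. All Mc4r KO libraries were above all WT libraries, but the counts were small. The log2 fold change was 2.10 (SE 0.83, 95% interval 0.14 to 4.06, limma adjusted p = 0.217) and ranged from 0.43 to 3.23 over the alternatives. Its level is uncertain, because 73.5% of its exonic bases are covered by exons of Gm45774 on the opposite strand and the use of strand in the counting is not given in the sources used here. Gm45774 had 0, 2 and 2 reads in WT and 0, 0 and 7 reads in Mc4r KO, so the reads of Mt2 do not stand listed under that gene. Mt1 has no such overlap.

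The libraries of a group did not keep the same order from gene to gene. Among the Mc4r KO libraries, replicate 2 was the lowest for Fkbp5, Tsc22d3, Zbtb16, Klf9 and Errfi1, but it was the highest for Nr3c1, Hsd11b1 and Mt2. Among the WT libraries, replicate 3 was the highest for Fkbp5, Tsc22d3, Klf9, Errfi1 and Mt2 and the lowest for Zbtb16, Sgk1 and Mt1.

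The receptor is held by a chaperone machinery, and 20 of 21 genes of a list of chaperones, co-chaperones, coregulators and related enzymes were tested. Of these, 3 were higher and 2 lower in Mc4r KO at an unadjusted p under 0.05 (15% and 10%, beside 12.0% and 8.83% of all genes), none passed an adjusted p of 0.05 in limma, and the median log2 fold change was 0.08. With scaling outside the mitochondrial chromosome the counts were 0 higher and 4 lower (20% lower, beside 18.1% of all genes in that fit). With the mitochondrial share as a covariate both were 0, beside 5.68% and 5.04% of all genes. Fkbp4, which encodes FKBP52, the co-chaperone that replaces FKBP51 when hormone binds, was at 91.4, 109 and 119 FPKM in WT and 132, 171 and 130 FPKM in Mc4r KO. It was higher in every Mc4r KO library, with a log2 fold change of 0.44 (SE 0.14, limma adjusted p = 0.158). The ratio of Fkbp4 to Fkbp5 was 61.9, 57.2 and 56.4 in WT and 18.8, 39.6 and 15.2 in Mc4r KO. The groups did not overlap in this ratio, with means of 58.5 ± 2.97 and 24.5 ± 13.2 (SD, n = 3 each) and the smallest p the exact permutation test allows, 0.1. Fkbp5 is the denominator, so the separation of the ratio largely follows from the difference of Fkbp5 given above and is no separate result. Stip1, which joins HSP70 to HSP90, and Ppp5c, which encodes a phosphatase of the receptor complex, had log2 fold changes of 0.43 (SE 0.15, limma adjusted p = 0.175) and 0.38 (SE 0.10, adjusted p = 0.107). Hsp90ab1, the most abundant HSP90 gene here, was between 349 and 398 FPKM in WT and between 359 and 437 FPKM in Mc4r KO, which overlapped.

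To set the members beside more of the response, 36 other genes known to respond to glucocorticoids in some tissue were described, of which 34 were tested. At an unadjusted p under 0.05, 12 of the 34 were higher and 3 lower in Mc4r KO (35.3% and 8.82%, beside 12.0% and 8.83% of all genes), and their median log2 fold change was 0.32. The counts depended on the scaling: outside the mitochondrial chromosome they were 4 higher and 5 lower (11.8% and 14.7%, beside 4.95% and 18.1% of all genes), and without WT replicate 3 they were 17 higher and 3 lower of 33 (51.5% and 9.09%, beside 15.6% and 12.6% of all genes). The median was 0.13 with that scaling and -0.04 with the mitochondrial share as a covariate, where 8 were higher and 4 lower (23.5% and 11.8%, beside 5.68% and 5.04% of all genes). Of the 34 genes, 3 passed an adjusted p of 0.05, and all of them rose. Cdkn1a, which encodes the cell cycle inhibitor p21 and is also a target of p53, was at 2.42, 3.57 and 5.34 FPKM in WT and 14.4, 14.1 and 21.4 FPKM in Mc4r KO (log2 fold change 2.15, SE 0.29, limma adjusted p = 0.0415). Lcn2, the iron-binding lipocalin that is also induced by inflammation, was at 0.270, 0.557 and 1.01 FPKM in WT and 2.90, 4.62 and 6.06 FPKM in Mc4r KO (log2 fold change 2.78, SE 0.43, limma adjusted p = 0.0495). Both genes also respond to other signals, and both were known to be higher in these data when the list was drawn up. The whole list was drawn up with earlier results of these data known, so its counts are a description and not a test.

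Map3k6, a stress-activated kinase gene, was at 3.59, 3.87 and 3.89 FPKM in WT and 9.14, 7.25 and 10.1 FPKM in Mc4r KO. The WT libraries were close together and all Mc4r KO libraries were well above them. It rose with a log2 fold change of 1.19 (SE 0.14, limma adjusted p = 0.033). By the same measure of likeness as for Nr3c1, it was also among the 3 genes whose pattern was most like that of Fkbp5. Its Pearson r was 0.992 over the 6 libraries, beside Rps6kb2 and Nucb1 with r of 0.993 each. Here too the libraries share a group difference, and the genes were taken as the highest of 10219. The size of a change does not enter r: Nucb1 was at 10.2 to 10.7 FPKM in WT and 11.1 to 11.8 FPKM in Mc4r KO. Irs2, an insulin receptor substrate, was lower in every Mc4r KO library, at 4.82, 3.67 and 2.66 FPKM in WT and 1.93, 1.51 and 1.84 FPKM in Mc4r KO (log2 fold change -1.004, SE 0.22, limma adjusted p = 0.0871). The calls of Cdkn1a, Map3k6 and Lcn2 were lost in 9, 9 and 13 of 19 alternatives.

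**Figure D3:**
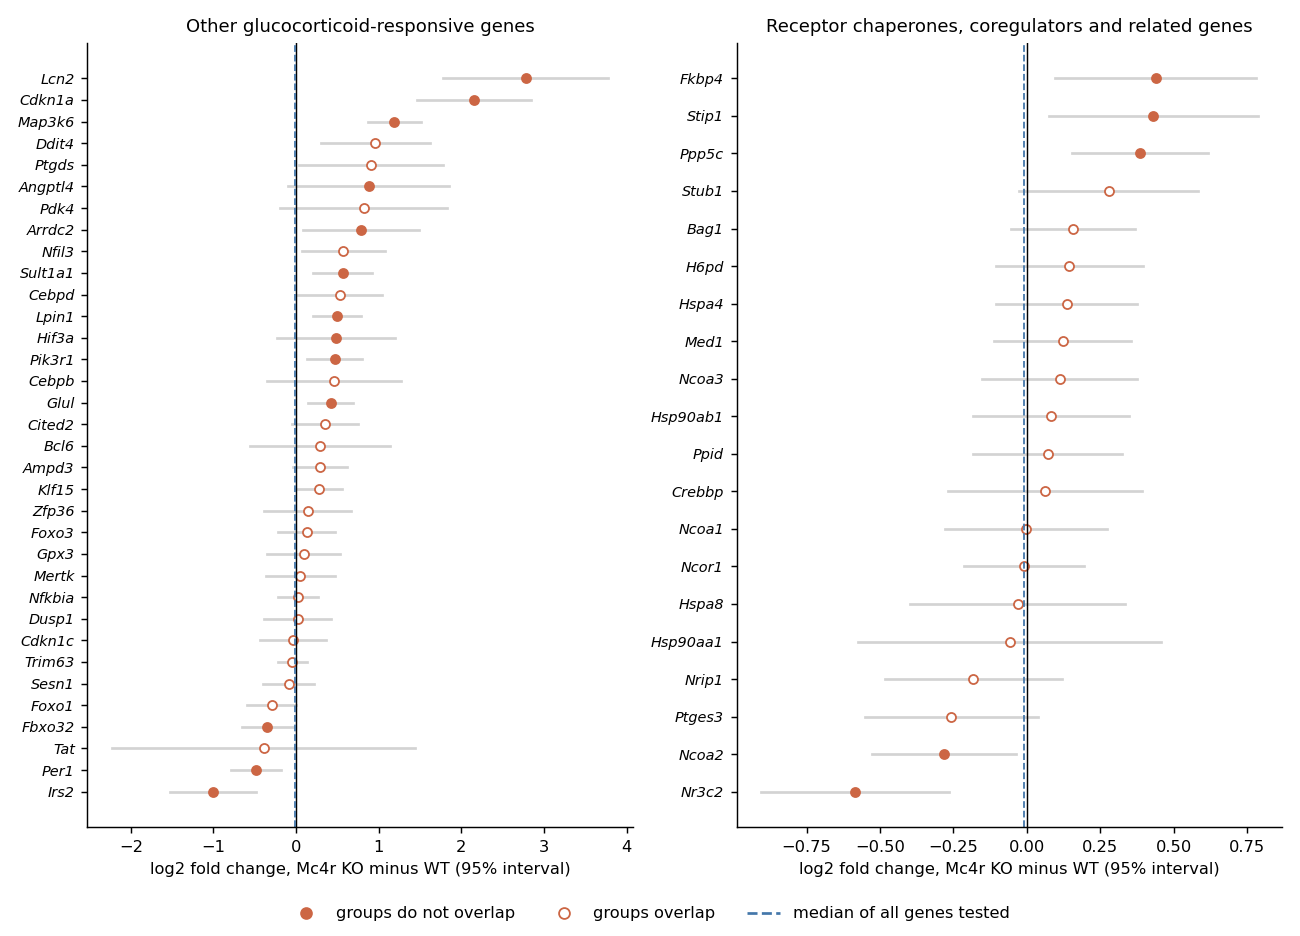
Log2 fold change, Mc4r KO minus WT (horizontal axes, different ranges), with 95% intervals for the 34 other glucocorticoid-responsive genes tested (left) and the 20 receptor chaperones, coregulators and related genes tested (right); filled points mark genes whose groups do not overlap and the dashed line is the median of all genes tested. Lcn2 at 2.78, Cdkn1a at 2.15 and Map3k6 at 1.19 lie at the upper end of the left panel, Irs2 at its lower end, and Nr3c2 at -0.58 is the lowest on the right.

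Metal handling was described beside the metallothioneins with 10 further genes, of which 9 were tested, 1 being higher and 1 lower at an unadjusted p under 0.05 (11.1% each, beside 12.0% and 8.83% of all genes). The median log2 fold change was -0.15, and 0.14 with the mitochondrial share as a covariate. Slc39a14, which encodes the zinc and iron importer ZIP14, was at 4.77, 5.02 and 5.03 FPKM in WT and 6.82, 8.80 and 8.16 FPKM in Mc4r KO (log2 fold change 0.66, SE 0.12, limma adjusted p = 0.0579). Like Mt1 it was higher in all 3 Mc4r KO libraries. Mt3, the brain metallothionein, had 5, 10 and 13 reads in WT and 0, 0 and 5 in Mc4r KO. Mtf1, the metal-sensing factor that binds metal response elements, was between 1.85 and 2.24 FPKM in WT and between 2.14 and 2.39 FPKM in Mc4r KO. Slc30a1, a zinc exporter gene under Mtf1, had a log2 fold change of 0.01 (limma adjusted p = 0.963). Mtf1 and Slc30a1 overlapped between the groups and were chosen after their values were seen, as the regulator of the metal response and its best known target beside the metallothioneins.

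Genes for making corticosteroids, with related genes of steroid handling, were searched to see whether the heart tissue held steroid-producing cells. Of 11 such genes only Star, Scarb1 and Srd5a1 passed the filter on low values, and all 3 overlapped between the groups. Star, the cholesterol carrier of steroid synthesis, was between 0.711 and 1.38 FPKM in WT and between 0.689 and 0.944 FPKM in Mc4r KO. Hormone levels in blood were not measured in these data.

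The members' fold changes moved with the processing to different degrees, as the plot of the alternatives shows. Fkbp5, Mt1, Zbtb16 and Mt2 stayed positive and Nr3c1 and Errfi1 stayed negative under all 19 alternatives. The values of Hsd11b1, Tsc22d3, Sgk1 and Klf9 lay near 0 and changed sign under some of them, which for Hsd11b1, Sgk1 and Klf9 included the scaling that shifts the median of all genes to -0.19.

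**Figure D4:**
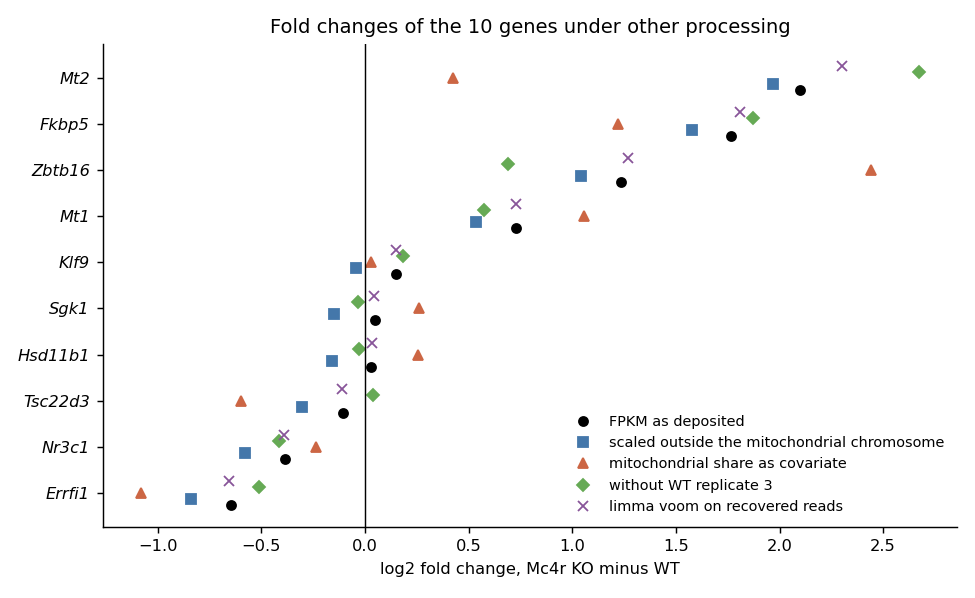
Log2 fold change, Mc4r KO minus WT (horizontal axis), of the 10 genes under FPKM as deposited and under 4 alternatives (symbols). Under scaling outside the mitochondrial chromosome every gene lies to the left of its deposited value, Zbtb16 moves from 1.24 to 0.69 without WT replicate 3, and Klf9, Sgk1, Hsd11b1 and Tsc22d3 lie on either side of 0.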

How the data were processed

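RNA was taken from hearts of 3 Mc4r KO and 3 WT mice and sequenced in pairs after enrichment for polyadenylated RNA. Per the labels and the study's methods, the authors called bases with CASAVA, removed adapters and poor reads, aligned the rest to mm10 with HISAT2 (2.0.5), counted reads with featureCounts and deposited FPKM per gene and library. Neither the release of the annotation nor the strand setting is given in the sources used here. Of the gene identifiers, 99.9% were found in GENCODE M21, which was used for overlaps between genes. In each library 100% of FPKM values times gene length were whole multiples of 1 step within 0.1 read, tested on values of up to 1000 reads, which gave back the reads per gene.

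Because FPKM is not a count, the test was limma 3.58.1 (R 4.3.3) on log2(FPKM + 0.1) over all 6 libraries, with the empirical Bayes trend, no covariate, two-sided p-values and Benjamini-Hochberg adjustment over the 18035 genes whose FPKM averaged 0.1 or more. On this scale the change of low genes is understated. Calls used the study's own thresholds, an adjusted p below 0.05 and a log2 fold change beyond 0.75 in either direction. The fits were tested on simulated data with 200 changed genes, at an adjusted p under 0.05. The limma fit recovered 75% of 2-fold and 100% of 4-fold changes, with 21 false calls. With voom 100% of both were recovered, with 12 false calls. The simulation gave all genes the same relative spread, taken from genes with many reads. Its changed genes were not among those with few reads, and it held no outlying library. These rates therefore do not cover genes with few reads or a wide spread, such as Mt2 and Zbtb16. Single values used the exact permutation test, two-sided, whose smallest p is 0.1. Replicates are separate mice per the study's methods, and their numbers come from the titles. Precision is set by 14691076 to 16047003 reads on genes per library, where 3 reads on 1 kb correspond to 0.176 to 0.213 FPKM. These limits cover counting error only.

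The 10 genes and all lists were chosen with earlier results of these data known. Cdkn1a and Lcn2 were among those results. The genes named are the 10 members and, from each list, those with an adjusted p under 0.05 and up to 4 with the largest absolute log2 fold change among those without overlap between the groups. As genes of like pattern, the 3 with the highest Pearson correlation were taken. Nr3c1 and Fkbp5 were used for that search. Other genes were named after their values were seen, and 1 gene of a list is not reported here and was taken out of its counts, for a reason unrelated to its values. Promoter sequences are from RefSeq (GRCm38.p6). Each analysis was repeated with other pseudocounts (1 and 0.01), without the filter or with a minimum average of 1 FPKM, with scaling outside the mitochondrial chromosome or quantile normalization, with limma run without trend, with robust moderation or with array weights, with the replicate number as a block, with the mitochondrial share as a covariate, with limma voom on recovered reads, on protein-coding genes alone, with a fold threshold of 1.5, and with each library left out. Python 3.11.15 and matplotlib 3.10.9 drew the figures.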

Additional observations from a re-analysis of the deposited data

How the results depend on the processing

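In the reported analysis 83 genes were called, 68.7% of which were higher in Mc4r KO. The number called was 44 with a pseudocount of 1, 22 with no filter on low values, 147 with a mean FPKM of at least 1, 41 with scaling outside the mitochondrial chromosome (39.0% higher), 49 with quantile normalization, 21 with limma without trend (52.4% higher), 435 with array weights, 2 with the mitochondrial share as a covariate, 314 with limma voom on recovered reads and 204 with protein-coding genes only. Leaving out 1 library gave 7 to 726 calls, with 726 without WT replicate 3 and at most 14 without any other library. The number of the 10 members past an adjusted p of 0.05 was 1 (Fkbp5) in the reported analysis, beside 105 of all 18035 genes tested. It was 0 with a pseudocount of 1, no filter, scaling outside the mitochondrial chromosome and quantile normalization. The same held for limma without trend and for the mitochondrial share as a covariate. Across these fits 2 to 63 of all genes passed. It was 2 (Fkbp5 and Mt1) with array weights, beside 1149 of 18035 genes, and with protein-coding genes only, beside 460 of 13546. With limma voom it was 3 (Errfi1 added), beside 816 of 18035. Leaving out WT replicate 3 gave 2, beside 1846 of 17966 genes, and leaving out any other library gave 0, beside 7 to 14 genes. The median log2 fold change of the members was -0.10 with scaling outside the mitochondrial chromosome, 0.0023 with quantile normalization, 0.26 with the mitochondrial share as a covariate and 0.10 to 0.16 without 1 library. The cause of these shifts was not tested.

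The libraries share replicate numbers only: deviations of same-numbered libraries from their group means correlated at -0.14, 0.0074 and -0.08 over 11297 genes. With a replicate block, 11 genes and 0 of the members passed, and the adjusted p of Fkbp5 was 0.104.

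Fold changes near 0 turned sign. Scaling outside the mitochondrial chromosome, which moves all genes together to a median of -0.19, put Hsd11b1 at -0.16, Sgk1 at -0.15 and Klf9 at -0.043, so these signs say nothing of the genes themselves. With quantile normalization Sgk1 was at -0.075 and Klf9 at -0.0014, and with array weights Sgk1 was at -0.028. Leaving out 1 library gave -0.038 to 0.16 for Hsd11b1, -0.21 to 0.056 for Tsc22d3 and -0.033 to 0.16 for Sgk1. With 3 libraries a group, a difference of the size of that of Nr3c1 did not pass the adjustment over all genes tested, and the few reads of Mt2 and Mt3 leave their values imprecise.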

Other observations

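The circadian clock is entrained by glucocorticoids in peripheral tissues, and all 14 genes of a clock list were tested. Of these, 1 was higher and 3 lower in Mc4r KO at an unadjusted p under 0.05 (7.14% and 21.4%, beside 12.0% and 8.83% of all genes), and the median log2 fold change was -0.19. The counts were 0 higher and 6 lower with scaling outside the mitochondrial chromosome (42.9% lower, beside 18.1% of all genes in that fit). With the mitochondrial share as a covariate they were 0 higher and 3 lower (21.4% lower, beside 5.04% of all genes in that fit). Hlf, a clock output factor of the PAR bZIP family, fell from 11.5, 10.3 and 10.8 FPKM in WT to 6.47, 4.61 and 5.60 FPKM in Mc4r KO (log2 fold change -0.97, SE 0.13, limma adjusted p = 0.0415), a call lost in 9 of 19 alternatives. Tef, of the same family, was at 38.1, 32.2 and 31.8 FPKM in WT and 27.6, 26.0 and 26.4 FPKM in Mc4r KO (log2 fold change -0.34, limma adjusted p = 0.12). Per3 was lower in each Mc4r KO library (log2 fold change -0.66, limma adjusted p = 0.107). Per1, a clock gene counted with the other glucocorticoid-responsive genes and not in this list, was also lower in each (log2 fold change -0.49, limma adjusted p = 0.108). Arntl, which encodes the activator BMAL1, was higher in each Mc4r KO library at low levels (log2 fold change 0.92, limma adjusted p = 0.194). The hour at which each heart was collected is not given in the sources used here.

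Immediate early genes, which many stimuli and tissue handling induce within minutes, were described as a list of 12. None was higher and 4 were lower at an unadjusted p under 0.05 (33.3%, beside 8.83% of all genes), none passed an adjusted p of 0.05 in limma, and the median log2 fold change was -0.24. With scaling outside the mitochondrial chromosome 4 of the 12 were lower (33.3%, beside 18.1% of all genes in that fit). With the mitochondrial share as a covariate 1 of the 12 was lower (8.33%, beside 5.04% of all genes in that fit). Without WT replicate 3, 3 of the 12 passed an adjusted p of 0.05, beside 1846 of the 17966 genes tested in that fit. Atf3, a stress-induced repressor, was at 5.79, 4.69 and 3.11 FPKM in WT and 2.72, 2.57 and 2.31 FPKM in Mc4r KO (log2 fold change -0.77, limma adjusted p = 0.124). Btg2, an antiproliferative gene, was at 22.7, 17.1 and 15.7 FPKM in WT and 12.3, 11.7 and 12.1 FPKM in Mc4r KO (log2 fold change -0.60, limma adjusted p = 0.0949). The orphan receptor gene Nr4a1 had a log2 fold change of -0.59 (limma adjusted p = 0.133). Fosb had 2 to 26 reads in a library, with a log2 fold change of -1.11 (limma adjusted p = 0.23).

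Among other marker lists, erythrocyte genes summed to 4497, 859 and 6344 FPKM in WT and 1651, 663 and 620 FPKM in Mc4r KO, and macrophage genes to 76.6 to 137 FPKM in WT and 106 to 133 FPKM in Mc4r KO. The macrophage markers did not move together: Cd68 and Csf1r were lower in every Mc4r KO library (log2 fold changes -0.42 and -0.37, limma adjusted p = 0.186 and 0.183), while C1qa and C1qb, the most abundant, overlapped with log2 fold changes of 0.63 and 0.31. Adipocyte markers summed to 12.6 to 16.8 FPKM in WT and 19.6 to 27.1 FPKM in Mc4r KO, but 7 of 8 were under 1 FPKM in every library and 3 were at 0. Endothelial genes summed to 231 to 302 FPKM and 267 to 304 FPKM, and genes of smooth muscle and pericytes to 215 to 284 FPKM and 187 to 281 FPKM. B cell genes summed to 1.84 to 11.7 FPKM in WT and 1.30 to 2.24 FPKM in Mc4r KO, and skeletal muscle genes to 356 to 594 FPKM and 574 to 959 FPKM. Nearly all of the skeletal muscle sum was Acta1 and Ckm, which both overlapped between the groups, while 5 of the 7 genes were under 1 FPKM in every library. The part of these cells in the levels of the 10 genes was not tested.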
